A study of Mus musculus with 21 samples.

Results

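Early changes in open chromatin were followed from granule neuron progenitors (GNP) to hyperplasia by comparing 3 GNP libraries with 3 hyperplasia libraries, 6 of the 21 Omni-ATAC libraries of the series. The libraries were chosen by their labels alone: the 3 whose cell type is granule neuron progenitors and the 3 whose cell type is hyperplasia. GNP came from cerebella at postnatal day 7 and hyperplasia from cerebella at postnatal day 28, both of mice that carry Atoh1-EGFP, and both were enriched on a Percoll gradient. The titles of the GNP libraries begin with Ptch1GNP and those of the hyperplasia libraries with PNC, an abbreviation the labels do not spell out. Neither group has a genotype in the labels, so whether both carry a Ptch1 allele is unknown. Sorting of EGFP-positive cells is described after the tumor step, and the text does not make clear whether GNP and hyperplasia cells were sorted as well. Stage and age changed together, so hyperplasia and 3 more weeks of age cannot be told apart. Nothing in the labels tells whether replicates of a group are separate animals. The p-values therefore measure the spread between these libraries, which may be technical. Those of limma pool that spread over genes and do not rest on the spread of each gene alone. The other 15 libraries hold tumors of the same series and the medulloblastoma cell line VDR, untreated or treated with siRNA, and 9 of them serve here only to look up the changed regions.

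Granule neuron progenitors proliferate in the outer layer of the young cerebellum under Sonic hedgehog and then leave the cycle and become granule neurons. Atoh1, a basic helix-loop-helix factor, marks and maintains the dividing state, and Ptch1 is the receptor that holds the pathway off until the ligand binds, so that loss of Ptch1 lets progenitors persist as hyperplasia and in part become medulloblastoma. ATAC-seq cuts accessible DNA with a transposase, and its peaks mark active promoters, which sit at gene starts, and enhancers, which often lie far from them.

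The deposited data were 1 list of peak summits per library, each summit with the authors' score on a −log10 scale of p or q. The 6 lists held between 210846 and 259276 summits on chromosomes 1 to 19, X and Y. Read depth is unknown. The score at rank 100000, which falls with weaker signal, was 16.1, 28.9 and 15.3 in GNP and 9.68, 12.6 and 9.26 in hyperplasia. The groups did not overlap in that score (exact two-sided permutation p = 0.1, the smallest that 3 against 3 allows), so signal strength moved with the groups and its part in the results below was not tested. The 100000 highest summits of each list were kept, which equalises list length and not depth. They were merged by rank into 102290 regions of 500 bp, called occupied in those libraries that had a kept summit there. Hyperplasia replicate 3 stood somewhat apart from the other 2 in distance to genes, and results that rest on it are given without it. The Jaccard overlap of occupied regions, the shared regions over the union, averaged 0.812 between GNP libraries, 0.706 between hyperplasia libraries and 0.626 across the groups.

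In hyperplasia 4952 regions were gained, meaning occupied in 3 of 3 hyperplasia and 0 of 3 GNP libraries, which is 4.84% of all regions. The opposite pattern marked 4604 lost regions, 4.5% of all. A common core of 43607 regions (42.6%) was occupied in all 6 libraries. Single regions were not tested. Many changes were shifts in rank. Of the gained regions 2419 (48.8%) held a weaker summit in all 3 whole GNP lists, and 932 (18.8%) held none in any of them. Of the lost regions 1821 (39.6%) held a weaker summit in all 3 whole hyperplasia lists and 501 (10.9%) in none. A kept summit of the other group lay within 1 kb of the centre for 592 gained (11.95%) and 1028 lost regions (22.3%). Changed regions were weaker than the core, with a median mean rank of 60747 in hyperplasia for gained regions and 68215 in GNP for lost ones, against 29824 and 28628 for the core.

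Gene starts gave a small part of the changes, and their sequences differed in composition from those of constant starts. RefSeq promoter windows, 250 bases before to 50 after a start on GRCm38.p6 (the mm10 assembly), were matched to the regions with a minimum overlap of 100 bp. Of 32817 windows, 90 overlapped a gained region, 183 a lost one and 11240 one of the core. The 3 gained and the 3 lost windows whose summits ranked best in the group that held them are shown. Weaker summits of the other group did not enter that choice. Each reads 5′ to 3′ along the gene, and capitals mark matches on either strand to CAGATG and CAGCTG (E-boxes, the kind of site that basic helix-loop-helix factors bind) and to TTGGCA (a half-site of the NFI factors). Gm11211, Gm15889, Gm35076 and Gm30487 are long noncoding RNA genes. Klhl35 encodes a kelch-like protein and Arhgef3 a guanine nucleotide exchange factor.
Gm11211: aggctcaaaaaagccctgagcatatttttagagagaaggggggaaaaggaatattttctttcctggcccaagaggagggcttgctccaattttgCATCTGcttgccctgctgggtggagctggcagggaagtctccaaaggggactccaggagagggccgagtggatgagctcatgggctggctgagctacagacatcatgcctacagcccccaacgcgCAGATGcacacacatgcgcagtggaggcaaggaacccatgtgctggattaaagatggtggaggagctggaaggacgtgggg
Klhl35: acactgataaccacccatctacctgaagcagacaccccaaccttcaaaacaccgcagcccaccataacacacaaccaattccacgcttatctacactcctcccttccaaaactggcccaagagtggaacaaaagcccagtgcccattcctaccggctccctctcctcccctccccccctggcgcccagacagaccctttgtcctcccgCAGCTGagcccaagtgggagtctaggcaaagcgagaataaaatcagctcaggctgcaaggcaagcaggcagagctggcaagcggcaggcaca
Gm15889: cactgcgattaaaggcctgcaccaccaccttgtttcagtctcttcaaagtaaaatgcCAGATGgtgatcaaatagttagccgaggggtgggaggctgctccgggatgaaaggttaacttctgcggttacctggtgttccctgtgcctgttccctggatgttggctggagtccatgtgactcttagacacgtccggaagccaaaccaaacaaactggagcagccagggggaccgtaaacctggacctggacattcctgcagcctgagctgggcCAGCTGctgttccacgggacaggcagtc
Gm35076: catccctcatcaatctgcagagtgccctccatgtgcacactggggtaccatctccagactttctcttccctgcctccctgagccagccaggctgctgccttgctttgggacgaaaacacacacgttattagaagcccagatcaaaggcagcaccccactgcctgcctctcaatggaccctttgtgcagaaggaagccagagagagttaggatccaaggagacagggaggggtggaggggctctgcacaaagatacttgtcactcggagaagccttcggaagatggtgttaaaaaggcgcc
Gm30487: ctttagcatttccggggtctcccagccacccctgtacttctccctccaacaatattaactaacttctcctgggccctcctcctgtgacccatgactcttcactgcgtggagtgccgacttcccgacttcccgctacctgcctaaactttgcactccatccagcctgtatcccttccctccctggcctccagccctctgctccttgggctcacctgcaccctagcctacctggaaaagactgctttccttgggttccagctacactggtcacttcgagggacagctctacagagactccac
Arhgef3: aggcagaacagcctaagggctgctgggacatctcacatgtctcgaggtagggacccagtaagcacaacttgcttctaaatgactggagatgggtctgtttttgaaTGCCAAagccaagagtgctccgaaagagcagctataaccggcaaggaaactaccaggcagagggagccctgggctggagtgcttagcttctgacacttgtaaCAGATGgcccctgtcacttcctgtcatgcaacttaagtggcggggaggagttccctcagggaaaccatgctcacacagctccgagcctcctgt

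The 3 gained starts lie at chr4:62727502-62727801 (Gm11211, minus strand), chr7:99465754-99466053 (Klhl35, plus strand, inside the body of the gene) and chr8:94377625-94377924 (Gm15889, plus strand). Their regions held no kept summit in any GNP library. In hyperplasia the Gm11211 region ranked 20404, 20658 and 16066, the Klhl35 region 14249, 32572 and 31946, and the Gm15889 region 22397, 31585 and 36687. All 3 were also occupied in every tumor library, and all 3 held a weaker summit in 2 or 3 of the whole GNP lists. The 3 lost starts lie on the plus strand at chr8:88512308-88512607 (Gm35076), chr4:106464379-106464678 (Gm30487) and chr14:27237760-27238059 (Arhgef3). At Gm30487 the region ends at 106464511, overlaps the window by 133 bp at its upstream end and does not reach the start itself. In GNP the Gm35076 region ranked 11202, 18475 and 23694, the Gm30487 region 20288, 18842 and 15313, and the Arhgef3 region 22197, 18795 and 21358. Gm35076 was occupied again in all 3 tumor libraries, while Gm30487 and Arhgef3 were occupied in none. A weaker summit remained in all 3 whole hyperplasia lists at Gm35076 and Gm30487 and in 1 at Arhgef3.

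Motif shares were counted in the same windows, on both strands, as a description. The GC box GGGCGG, common in CpG-rich starts, was in 16.7% of gained, 44.8% of lost and 68.8% of core windows, against 35.6% of all windows. CAGATG was in 35.6% of gained, 26.2% of lost and 10.5% of core windows, against 17.2% of all. CAGCTG was in 33.3%, 21.9% and 15.3% in the same order, against 16.3% of all, and TTGGCA in 23.3%, 16.9% and 10.9%, against 14.1%. Gained windows were therefore poorer in GC boxes and richer in these E-boxes than core windows, and lost windows lay between. The 19077 windows without a region held the GC box in 14.3%, CAGATG in 21.03% and CAGCTG in 16.3%. The GC box share of gained windows was thus near that of windows without a region, while both E-box shares were higher. Gained windows came from 77 genes and lost ones from 164, so windows of the same gene are not independent. The AP-1 site TGACTCA was in 5.56% of gained, 3.28% of lost and 2.78% of core windows, against 5.20% of all. The ETS site CCGGAAGT was in 4.44%, 0.546% and 9.21%, against 3.89% of all. No gained or lost window held the GLI site GACCACCCA, which 0.253% of all windows hold. Changed regions away from promoter windows were not read.

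Per gene, a kept summit within 1 kb of any RefSeq start was called an open start. Open starts numbered 10552, 10530 and 10487 coding genes in GNP and 10339, 10365 and 10187 in hyperplasia. Every hyperplasia library had fewer open starts than every GNP library (mean difference −226, exact two-sided permutation p = 0.1). Of 11030 coding genes with an open start in at least 1 library, 115 (1.04%) were open in 3 of 3 GNP and 0 of 3 hyperplasia libraries, and 40 (0.363%) the reverse. Without hyperplasia replicate 3 the second count was 67 and the first 154. Closed starts in the gene lists, named here after their values were seen, were those of Gabra5, Gabrg3 and Gabbr2 (GABA receptor subunits), Gad2 (a GABA-synthesising enzyme), Dpp10 (an auxiliary subunit of potassium channels), Cntn5 and Cdh10 (neuronal adhesion), Ncan (a brain proteoglycan), Fabp7 (a fatty acid carrier of radial glia) and Wnt6. The only list member whose start opened was Foxa2, a forkhead factor of the floor plate and endoderm. Among the 24 glutamate and GABA receptor genes with a promoter entry, 21, 21 and 21 starts were open in GNP and 18, 18 and 17 in hyperplasia. Synaptic adhesion genes had 31, 32 and 31 open starts of 38 in GNP and 26, 30 and 29 in hyperplasia. Wnt pathway genes had 25, 23 and 23 of 33 and 21, 21 and 20. In these 3 of 30 lists, picked after their values were seen, the groups did not overlap. Since 3 against 3 libraries reach no exact p below 0.1, a few of 30 lists may separate without a change. These list counts were not tested. All 26 cell cycle genes, all 28 chromatin regulators and all 29 Fanconi anaemia and DNA repair genes with a promoter entry were open at the start in each of the 6 libraries.

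Changed regions lay away from gene ends. The share of kept summits within 1 kb of an end of a coding gene was 31.7%, 31.7% and 32.5% in GNP and 30.9%, 31.2% and 28.5% in hyperplasia. The means were 31.98% ± 0.469 and 30.2% ± 1.49 (SD, n = 3), a difference of −1.80 percentage points with no overlap (exact two-sided permutation p = 0.1, adjusted p = 0.14 over 7 position classes). Without hyperplasia replicate 3 the difference was −0.949. When summits with a score of at least 10 were kept in place of 100000 per list, which leaves 124086 to 164171 summits in GNP and 95946 to 115911 in hyperplasia, the difference turned to 1.77. Each class from 1 to 500 kb outside genes took a slightly larger share in hyperplasia without overlap: from 7.06% to 7.25% at 1 to 10 kb, 9.80% to 10.2% at 10 to 50 kb, 4.29% to 4.54% at 50 to 100 kb and 6.77% to 7.24% at 100 to 500 kb (exact permutation, adjusted p = 0.14 each). Shares deeper in gene bodies and beyond 500 kb overlapped.

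Region by region, the share that changed was higher farther from genes. Of the 21081 regions within 1 kb of a gene end, 0.873% were gained, 1.77% were lost and 67.6% belonged to the core. Of the 45030 regions deeper in gene bodies, 5.45% were gained and 5.05% lost. Outside genes the gained share went from 4.91% at 1 to 10 kb through 6.03%, 6.91% and 7.71% to 8.31% beyond 500 kb. The lost share went from 4.18% through 4.99%, 5.70% and 6.46% to 8.86%. Losses outnumbered gains near gene ends (374 against 184) and gains outnumbered losses in every class from gene bodies out to 500 kb, while beyond 500 kb there were 113 losses and 106 gains. Gene bodies held 49.5% of all gained and 49.3% of all lost regions.

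**Figure D1:**
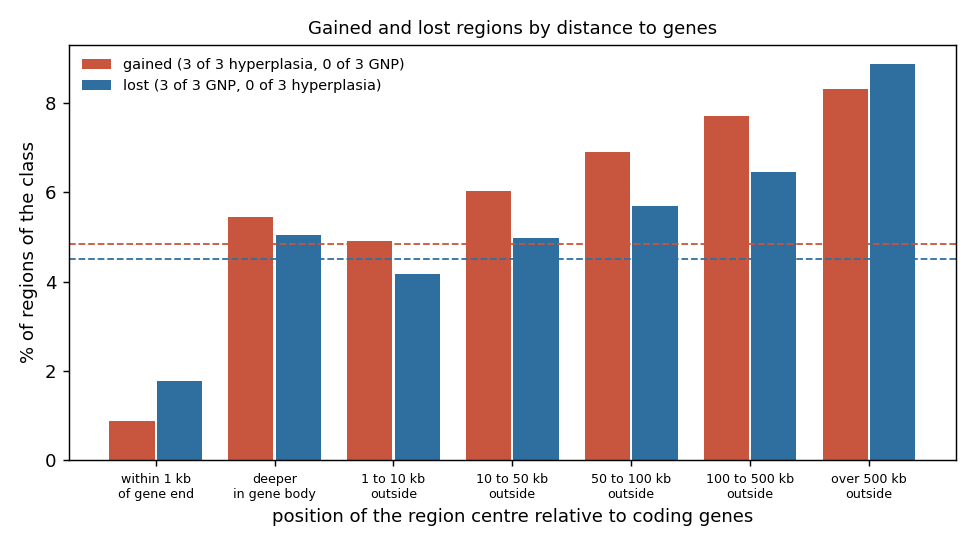
Share of regions of each position class (horizontal axis, distance of the region centre to coding genes) that were gained (red) or lost (blue) in hyperplasia, in % of the class, with dashed lines at the shares over all regions (4.84% and 4.5%). Near gene ends 0.873% were gained and 1.77% lost, and beyond 500 kb 8.31% and 8.86%.

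Changed regions clustered by direction. Of the regions within 10 kb of a gained region, 10.9% were gained themselves and 3.11% lost. Of those within 10 kb of a lost region, 10.04% were lost and 2.71% gained. Around core regions the shares were 2.83% and 3.73%. The 5 gained regions with the strongest summits lay at chr2:74416027-74416526 (98559 bp from Lnpk, which encodes an endoplasmic reticulum protein), chr1:84222045-84222544 (in the body of Pid1), chr16:93515302-93515801 (67905 bp from Setd4, a SET-domain methyltransferase gene), chr4:138084879-138085378 (in the body of Eif4g3, a translation initiation factor gene) and chr13:63336314-63336813 (in the body of Fancc). Their ranks in the hyperplasia lists were 1701, 2069 and 513 at the first, 1281, 1660 and 3526 at the second, and 1865, 3191 and 2384 at the third. The third had no summit in any GNP list, whereas the first had ranks of 100095, 109233 and 110200 there, just beyond the 100000 kept. All 5 were occupied in each of the 3 tumor libraries. The 5 strongest lost regions lay at chr4:100009233-100009732 and chr4:100011567-100012066 (both near Pgm1, which encodes a phosphoglucomutase), chr7:51307704-51308203 and chr4:124063364-124063863 (both over 100 kb from a coding gene) and chr10:84437404-84437903 (in the body of Nuak1, an AMPK-related kinase gene). The first of them ranked 1922, 3015 and 4453 in GNP and 179900, 113093 and 144146 in hyperplasia, and was occupied again in all 3 tumor libraries.

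Genes were compared by the number of occupied regions in their body or, outside bodies, nearest to them within 100 kb. Of 6771 genes with a mean of at least 3 regions, 671 (9.91%) had more regions in hyperplasia and 571 (8.43%) fewer (limma on log2 of regions plus 1, Benjamini-Hochberg adjusted p below 0.05). Most changes were small: 45 of the higher and 19 of the lower genes differed at least 2-fold on that scale, and the median over all genes was 0 with a median absolute value of 0.19. In 1537 genes (22.7%) the 2 groups did not overlap, 818 higher and 719 lower. The fit used a lower bound on each gene's variance that was added after plain limma was tried. Without it 318 genes were higher and 234 lower, and 388 of those 552 were also called with it. The bound thus raised the number of calls, from 552 to 1242, and genes with a wide spread of their own could be called. Cdh4, with 48, 47 and 43 regions in GNP and 31, 43 and 43 in hyperplasia, had a limma adjusted p of 0.358 without it and 0.0470 with it. With 50000 summits per list the calls were 376 and 430, so lower calls outnumbered higher ones. With all summits of each list they were 318 and 149, and with a score of at least 10 they were 44 and 1637 with the median gene at −0.27. The share of calls that were higher was thus 54.0%, against 46.7% for 50000 summits, 68.1% for whole lists and 2.62% for the score limit. Of the 640 calls that could be tested with 50000 summits, 543 kept their direction, 294 were called again and 7 were called the opposite way. Directions below are those with 100000 summits per list. The genes described below were picked, after their values were seen, from 169 that a rule names. Over all 169 the direction turned under at least 1 alternative in 38, and 90 were not called without the variance bound.

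Leaving out 1 library at a time left 278 higher and 206 lower genes called in all 6 fits. The lower count fell to 349 without GNP replicate 1 and 325 without GNP replicate 2. Many genes changed in both directions at once: 852 tested genes held at least 1 gained and 1 lost region, and 692 of them were not called. Long genes were called more often. Of the 493 tested genes over 300 kb, 21.3% were higher and 13.0% lower, against 6.23% and 7.21% of the 915 under 10 kb.

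Foxa2 (chr2:148042877-148046969) had 4, 5 and 4 occupied regions in GNP and 15, 18 and 14 in hyperplasia, a log2 change of 1.64 ± 0.13 (SE, limma adjusted p = 1.05e-11). The groups were far apart, and 8 regions of the locus were gained and none lost, 2 of the gained ones in the gene itself. Kif21a, which encodes a kinesin motor, had 1, 1 and 1 regions in GNP and 8, 7 and 6 in hyperplasia (1.99 ± 0.19, adjusted p = 2.34e-10). This was the highest log2 change of all tested genes. Adcy2, an adenylyl cyclase gene, had 5, 3 and 4 regions in GNP and 14, 15 and 13 in hyperplasia (1.60 ± 0.14, adjusted p = 6.75e-11). Aldh1a2, whose enzyme makes retinoic acid, had 3, 1 and 1 and then 6, 5 and 6 (1.40 ± 0.21, adjusted p = 5.82e-06). Both were clear of overlap. Aldh1a2 had an adjusted p of 0.0639 without the variance bound.

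The other large rises were Gm52030, Aopep, Fancc, Dnajc5b, Col28a1, Pid1, Arap2, Tox, Lsm6, Adprhl1 and Cobll1, with log2 changes between 1.33 and 1.87 and no overlap between the groups. Col28a1 encodes a collagen, Arap2 a GTPase-activating protein, Tox an HMG-box factor and Lsm6 a subunit of RNA-binding LSm rings. The adjusted p of Gm52030, Adprhl1 and Cobll1 without the variance bound was 0.0670, 0.0651 and 0.0629. Gm52030, Lsm6 and Adprhl1 fell under the minimum of 3 regions without hyperplasia replicate 1 or 2 and were then not tested.

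Fancc lies next to Ptch1 on chromosome 13, and Aopep lies on the far side of Fancc. Aopep and Fancc overlap from 63301334 to 63326096, where regions went to Fancc as the smaller gene. They are therefore not independent loci. Fancc, a gene of the Fanconi anaemia DNA repair complex (chr13:63301334-63497292), had 4, 4 and 4 regions in GNP and 15, 13 and 14 in hyperplasia (1.58 ± 0.13, limma adjusted p = 1.16e-11). All 9 of its gained regions lay in the gene body. Aopep, an aminopeptidase gene (chr13:62964893-63326096), had 6, 4 and 4 and then 18, 16 and 16 (1.66 ± 0.14, adjusted p = 1.05e-11). Ptch1 itself had 18, 19 and 15 regions in GNP and 20, 16 and 19 in hyperplasia (0.08 ± 0.11, adjusted p = 0.731), and the groups overlapped. The rise thus lay beside the receptor gene and not over it. In 100 kb bins counted from the low-coordinate end of Ptch1, which is its 3′ end, the bin from 200 to 100 kb away held 0, 0 and 0 regions in GNP and 8, 7 and 7 in hyperplasia, of which 6 were gained. The bin that starts at that end of Ptch1 held 15, 16 and 14 and then 15, 13 and 17.

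**Figure D2:**
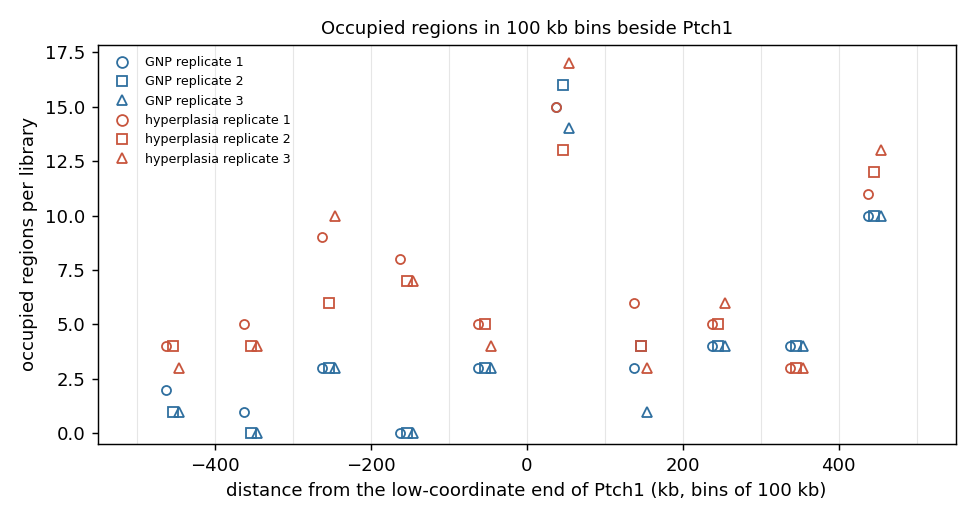
Occupied regions per library (vertical axis) in 100 kb bins by distance from the low-coordinate end of Ptch1 (horizontal axis, kb, Ptch1 to the right of 0), with GNP in blue, hyperplasia in red and 1 symbol per replicate. In the 5 bins below 0 every hyperplasia library lies above every GNP library, most in the bin from −200 to −100 kb (0 in each GNP library, 7 or 8 in hyperplasia), while over the start of the Ptch1 locus the groups overlap.

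Among the falls, Tlx3, a homeobox gene that selects glutamatergic over GABAergic fate (chr11:33200752-33203588), had 8, 9 and 6 regions in GNP and 2, 2 and 2 in hyperplasia (−1.51 ± 0.17, limma adjusted p = 1.05e-08). At Tlx3 4 regions were lost and none gained. Gsdmd, which encodes the pore protein of pyroptosis, had 6, 6 and 6 and then 1, 1 and 2 (−1.61 ± 0.19, adjusted p = 6.46e-08). Chrm3, the M3 muscarinic receptor gene, had 11, 11 and 10 and then 5, 5 and 3 (−1.15 ± 0.15, adjusted p = 3.71e-07), with 4 lost regions, all in its body. Sorcs1, a sorting receptor gene, had 14, 11 and 13 and then 3, 4 and 7 (−1.33 ± 0.16, adjusted p = 1.31e-07). All 6 of its lost regions were in the body, and without the variance bound its adjusted p was 0.0607.

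The other large falls were Cpne4, Bdkrb2, Lnx2, Stc1, Phex, Cep131, Adamts18, Cpa6, Zc2hc1b and Vsnl1, with log2 changes between −1.24 and −1.07 and no overlap. Adamts18, a secreted metalloprotease gene, had 14, 14 and 14 regions in GNP and 6, 5 and 7 in hyperplasia. Bdkrb2 encodes a bradykinin receptor, Vsnl1 a neuronal calcium sensor and Cep131 a centrosomal protein. The adjusted p of Lnx2, Stc1 and Zc2hc1b without the variance bound was 0.0804, 0.106 and 0.0602. Cpa6 fell under the minimum of 3 regions without GNP replicate 2 or 3, and Zc2hc1b without GNP replicate 1.

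**Figure D3:**
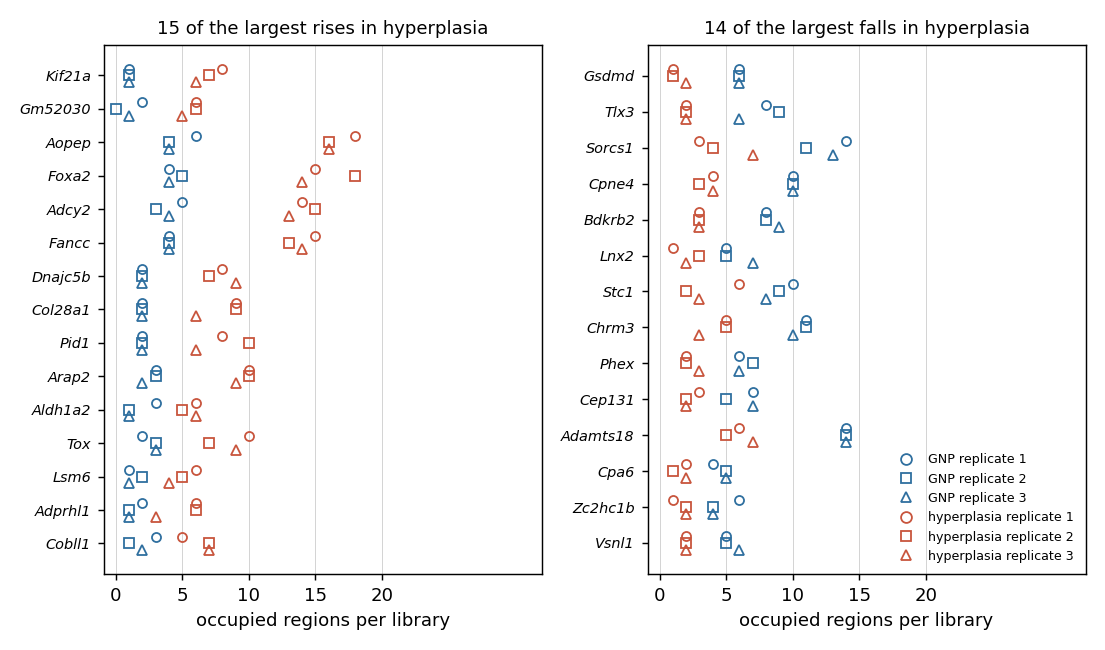
Occupied regions per library (horizontal axis) at the 15 genes with the largest rises (left) and 14 of those with the largest falls (right), GNP in blue and hyperplasia in red, 1 symbol per replicate. No gene shown has overlapping groups: Foxa2 goes from 4, 5 and 4 to 15, 18 and 14 and Tlx3 from 8, 9 and 6 to 2, 2 and 2.

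Hedgehog pathway genes stayed near the level of GNP as a group. Of 22 tested members 2 were higher and 2 lower, near the 9.91% and 8.43% of all genes, and their median log2 change was −0.02 against 0. Without the variance bound 1 was higher and 1 lower. Hhip, which encodes a decoy that binds Hedgehog ligands and is a known target of the pathway, had 4, 3 and 4 regions in GNP and 7, 10 and 8 in hyperplasia (1.00 ± 0.15, limma adjusted p = 9.27e-06). Sall1, a zinc-finger factor gene, had 8, 8 and 7 and then 13, 14 and 9 (0.57 ± 0.14, adjusted p = 0.00253), with an adjusted p of 0.131 without the variance bound. The co-receptor gene Boc had 25, 26 and 26 and then 22, 22 and 20 (−0.26 ± 0.09, adjusted p = 0.0452), and that call ended whichever library was left out (adjusted p 0.0509 to 0.1598). Zic2, the fourth, is described with the progenitor factors.

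The transcription factors of the pathway, the Gli genes, were not called. Gli1 had 5 regions in each of the 6 libraries, all of them occupied throughout. Gli2 had 42, 45 and 43 regions in GNP and 36, 34 and 43 in hyperplasia (−0.20 ± 0.08, limma adjusted p = 0.0760), and Gli3 had 11, 10 and 12 and then 14, 16 and 12 (0.32 ± 0.12, adjusted p = 0.0601). In each, hyperplasia replicate 3 sat with the GNP values, and without it Gli2 was lower (−0.30, adjusted p = 0.00307) and Gli3 higher (0.42, adjusted p = 0.00842). Smo, the signal transducer, had 4, 4 and 4 and then 3, 4 and 3 (adjusted p = 0.435). Sufu, an inhibitor of the Gli factors, had 14, 14 and 11 and then 10, 11 and 10 (adjusted p = 0.0798), and was lower without GNP replicate 3 (adjusted p = 0.0391).

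Progenitor factors of the granule lineage, by contrast, had 6 lower and 1 higher of 26 tested. These shares were 23.1% and 3.85%, against 8.43% and 9.91% of all genes. The median log2 change of the list was −0.10. Without the variance bound 2 were lower and none higher, and with a library left out 2 to 6 were lower. Atoh1 had 8, 9 and 9 regions in GNP and 8, 9 and 8 in hyperplasia (−0.05 ± 0.13, limma adjusted p = 0.858), and Barhl1 had 11, 11 and 11 and then 11, 12 and 10. Zic1 had 14, 15 and 16 and then 16, 13 and 11 (−0.17 ± 0.12, adjusted p = 0.357). In these 3 genes of the granule lineage the groups overlapped, and all 3 were occupied in every library. The lower genes included Pax6, Zic2, Lhx9, Meis2 and Id1. Pax6, a paired homeobox factor of granule cells, had 27, 31 and 29 regions and then 24, 26 and 21 (−0.29 ± 0.09, adjusted p = 0.0270). Its groups did not overlap, but the call ended without GNP replicate 2, GNP replicate 3 or hyperplasia replicate 3 (adjusted p 0.0550 to 0.163). Zic2 lost the call without any GNP replicate or hyperplasia replicate 2 or 3 (0.0764 to 0.162), Id1 without any GNP replicate or hyperplasia replicate 3 (0.0769 to 0.0896), Meis2 without GNP replicate 1 or 2 or hyperplasia replicate 2 (0.0526 to 0.277) and Lhx9 without GNP replicate 3 (0.0966). The 1 higher gene was Sox4, with 11, 10 and 10 and then 14, 17 and 11, whose call ended without GNP replicate 2 or 3 or hyperplasia replicate 2 (0.0655 to 0.248). Without the variance bound Pax6, Zic2, Lhx9, Meis2 and Sox4 had adjusted p-values of 0.152, 0.151, 0.111, 0.242 and 0.238.

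Genes of granule neuron maturation were also lower more often, 5 of 33 tested against 2 higher (15.2% and 6.06%, median −0.14). Among all genes 8.43% were lower and 9.91% higher. Without the variance bound 3 of the list were lower and 1 higher. Neurod1, a proneural factor of differentiating granule cells, had 9, 10 and 10 regions in GNP and 7, 6 and 7 in hyperplasia (−0.48 ± 0.13, limma adjusted p = 0.00791). The call ended without GNP replicate 2 (adjusted p = 0.0567). Its relative Neurod2 had 8, 9 and 10 and then 6, 5 and 4 (−0.75 ± 0.14, adjusted p = 0.000268). The groups were apart in both, although without the variance bound Neurod2 had an adjusted p of 0.0571. The splicing factor genes Rbfox3 and Rbfox1 went in opposite directions. Rbfox3, which encodes the neuronal marker NeuN, had 51, 49 and 54 and then 40, 42 and 43 (−0.29 ± 0.07, adjusted p = 0.00344). Rbfox1 had 38, 38 and 38 and then 48, 45 and 46 (0.28 ± 0.07, adjusted p = 0.00632). Both spans are long, and each held gained and lost regions, 2 and 8 in Rbfox3 and 5 and 3 in Rbfox1. The NMDA receptor genes Grin1 and Grin2a fell, Grin1 from 5 in each library to 3 in each and Grin2a from 14, 13 and 14 to 10, 11 and 8. The call of Grin1 ended without any of the GNP replicates (0.0545 to 0.0621), and Grin2a had an adjusted p of 0.0843 without the variance bound. Cntn2, an adhesion gene of postmitotic granule cells, had 7, 7 and 8 and then 5, 5 and 7 (adjusted p = 0.104), and was lower without hyperplasia replicate 3 (adjusted p = 0.0252). Gabra6, a marker of mature granule neurons, had no region in any of the 6 libraries.

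Mycn had 11, 15 and 16 regions in GNP and 11, 14 and 13 in hyperplasia (limma adjusted p = 0.542), Ccnd1 had 13, 14 and 14 and then 13, 12 and 13 (adjusted p = 0.597), and Ccnd2 had 16, 15 and 14 and then 15, 13 and 11 (adjusted p = 0.250). The groups overlapped in all 3. Of 12 tested cell cycle genes 1 was higher (8.33%, against 9.91% of all genes) and none lower. This gene, Cdk6, a kinase partner of the D cyclins, had 13, 13 and 13 and then 18, 18 and 20 (0.49 ± 0.11, adjusted p = 0.000880), with 5 gained regions in its body. Cell cycle inhibitors and tumour suppressors had 1 higher and 3 lower of 20 tested (5% and 15%, against 9.91% and 8.43% of all genes). Without the variance bound 1 of them was higher and none lower. Cdkn1a, which encodes the inhibitor p21, had 2, 2 and 3 and then 5, 5 and 5 (0.86 ± 0.18, adjusted p = 0.000487). With whole lists and with the score limit the change of Cdkn1a was −0.28 and −0.12. The lower genes were Cdkn1b, which encodes the inhibitor p27, with 11, 10 and 10 and then 9, 8 and 5 (−0.48 ± 0.14, adjusted p = 0.0175), and the p53 family genes Trp63, with 4, 4 and 4 and then 2, 2 and 3, and Trp73, with 8, 8 and 7 and then 5, 5 and 6 (adjusted p = 0.0192 each). The call ended for Cdkn1b without GNP replicate 1 or hyperplasia replicate 3 (0.0584 to 0.206), for Trp63 without any GNP replicate or hyperplasia replicate 1 or 2 (0.0884 to 0.1099) and for Trp73 without GNP replicate 1 or 2 or hyperplasia replicate 1 or 2 (0.0591 to 0.111). Cdkn1b turned to 0.16 with 50000 summits and 0.12 with whole lists, and Trp63 to 0.31 with whole lists.

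The NFI factors, which act in granule cell maturation, had 1 call in 4. These are too few genes to set against the 9.91% higher and 8.43% lower of all genes. Nfia had 55, 56 and 58 regions in GNP and 62, 65 and 65 in hyperplasia (0.18 ± 0.07, limma adjusted p = 0.0467), with 7 gained and 1 lost. The call ended without GNP replicate 1, GNP replicate 2 or any hyperplasia replicate (0.0600 to 0.190), and with the score limit the change was −0.21. Nfib had 45, 53 and 51 and then 44, 48 and 45 (adjusted p = 0.308), and Nfic had 20, 18 and 20 and then 26, 21 and 17 (adjusted p = 0.517). Nfix had 27, 29 and 33 and then 32, 38 and 32 (0.19 ± 0.09, adjusted p = 0.140). Without GNP replicate 3 Nfix was higher (adjusted p = 0.0480), and with the score limit its change was −0.50 (adjusted p = 0.0478). Only Nfia showed separate groups among the 4.

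Of 22 tested forkhead genes 7 were higher, none lower and 15 not called, 31.8% higher against 9.91% of all genes, with a median log2 change of 0.23 and 35 gained against 9 lost regions. With 1 library left out, 4 or 5 were higher and none lower, and without the variance bound 6 and none. Those 6 are not all among the 7, since Foxd1 and Foxn1 were not called without the bound (limma adjusted p 0.0577 and 0.153). Besides Foxa2, Foxp2, a factor of Purkinje and other neurons, had 7, 9 and 9 regions in GNP and 19, 19 and 19 in hyperplasia (1.11 ± 0.12, limma adjusted p = 5.37e-09). Foxf2 had 4, 5 and 4 and then 11, 9 and 9 (1.00 ± 0.14, adjusted p = 2.41e-06), and Foxq1 had 4, 5 and 5 and then 7, 8 and 8 (0.62 ± 0.14, adjusted p = 0.00192). These 4 kept the call whichever library was left out, and Foxd1 and Foxn1 did not. With whole lists the changes of Foxd1 and Foxn1 were −0.09 and −0.01. Foxf2 and Foxq1 lie in 1 cluster with shared flanks, so they are not independent loci. Of 11 tested Sox genes 3 were higher and 1 lower, 27.3% and 9.09% against 9.91% and 8.43% of all genes. Without the variance bound 1 was higher and none lower. Sox1, a neural progenitor factor, had 4, 5 and 5 and then 11, 11 and 11 (1.09 ± 0.14, adjusted p = 1.69e-07), but −0.14 with the score limit. Sox2, its close relative, had 10, 10 and 10 and then 9, 6 and 7 (−0.42 ± 0.13, adjusted p = 0.0256). The call of Sox2 ended without any GNP replicate or hyperplasia replicate 2 (0.0683 to 0.174), and without the variance bound its adjusted p was 0.152.

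Chromatin regulators were higher in 5 of 24 tested genes and lower in none (20.8%, median 0.08). Among all genes 9.91% were higher and 8.43% lower. With a library left out, 4 to 6 of these regulators were higher and 0 or 1 lower. Ezh1, a Polycomb methyltransferase gene, had 4, 4 and 3 regions in GNP and 7, 9 and 7 in hyperplasia (0.89 ± 0.15, limma adjusted p = 4.55e-05). Tet2, which encodes a 5-methylcytosine dioxygenase, had 4, 4 and 3 and then 6, 8 and 7 (0.78 ± 0.15, adjusted p = 0.000348). The deacetylase gene Hdac4 had 20, 21 and 22 and then 28, 29 and 29 (0.43 ± 0.09, adjusted p = 0.000643). The BAF subunit gene Arid1b had 50, 52 and 48 and then 60, 66 and 59 (0.30 ± 0.07, adjusted p = 0.00194), but −0.18 with the score limit. All 4 had separate groups. The Notch pathway had 5 higher and 2 lower of 19 tested (26.3% and 10.5%, median 0.13), 4 and none without the variance bound. Dner, a Notch ligand gene of Purkinje cells, had 10, 9 and 11 and then 19, 18 and 18 (0.82 ± 0.11, adjusted p = 1.26e-06). The ligand gene Jag1 had 9, 7 and 8 and then 12, 13 and 13 (0.61 ± 0.12, adjusted p = 0.000487), and Maml2, a coactivator gene, had 9, 9 and 9 and then 16, 12 and 14 (0.58 ± 0.12, adjusted p = 0.000672). Jun, an AP-1 subunit gene, had 11, 13 and 11 and then 18, 15 and 19 (0.53 ± 0.11, adjusted p = 0.000856), with an adjusted p of 0.0605 without the variance bound. Its list, AP-1 and immediate early genes, had 2 higher of 21 tested (9.52%, against 9.91% of all genes) and none lower. Without the variance bound none of that list was higher and 1 was lower.

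Adhesion, guidance and excitability genes moved in both directions. Cadherins and protocadherins had 9 lower and 2 higher of 31 tested (29.0% and 6.45%), but a median of −0.02, and 4 to 8 were lower with a library left out, 3 without the variance bound. Celsr1, a planar polarity cadherin gene, had 12, 11 and 11 regions in GNP and 7, 7 and 8 in hyperplasia (−0.57 ± 0.13, limma adjusted p = 0.00116), and Pcdh15 had 8, 8 and 8 and then 5, 4 and 5 (−0.67 ± 0.14, adjusted p = 0.000670). Cdh11 had 7, 7 and 7 and then 4, 3 and 5, and Cdh8, which rose, 9, 8 and 9 and then 12, 12 and 15. Cdh11 and Cdh8 had, without the variance bound, adjusted p-values of 0.0639 and 0.0532. Axon guidance genes had 6 lower and 3 higher of 50 tested, 12% and 6% against 8.43% and 9.91% of all genes. Without the variance bound none were lower and 2 higher. Sema3e, a secreted semaphorin gene, had 3, 4 and 4 and then 10, 7 and 12 (1.17 ± 0.16, adjusted p = 8.33e-07), whereas the ephrin receptor gene Epha8 had 9, 11 and 7 and then 5, 5 and 5 and the plexin gene Plxnc1 20, 21 and 19 and then 13, 13 and 17. Epha8 and Plxnc1 had adjusted p-values of 0.0622 and 0.0864 without the variance bound.

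Voltage-gated ion channel genes had 6 higher and 5 lower of 37 tested (16.2% and 13.5%). Receptor genes for glutamate and GABA had 3 higher and 4 lower of 27 (11.1% and 14.8%). Of all genes 9.91% were higher and 8.43% lower. Longer genes had larger shares, 15.4% and 10.2% at 100 to 300 kb and 21.3% and 13.0% over 300 kb. The lists were not matched for length. Without the variance bound the counts of the channel and receptor lists were 2 and 2 and 0 and 1. The potassium channel genes Kcna1 and Kcnd3 fell, from 6, 7 and 6 to 2, 3 and 4 and from 34, 34 and 29 to 27, 25 and 23. The calcium channel subunit gene Cacna2d2 fell from 12, 13 and 10 to 8, 8 and 7. The sodium channel gene Scn3a rose from 3, 3 and 3 to 8, 5 and 5, and the AMPA receptor gene Gria4 from 3, 2 and 4 to 7, 5 and 9. These 5 genes were not called without the variance bound (limma adjusted p 0.0559 to 0.0982). Collagen and matrix genes had 6 higher and 2 lower of 32 (18.75% and 6.25%), led by the rise of Col28a1 and the fall of Adamts18. Without the variance bound 3 were higher and 1 lower. Wnt pathway genes had 3 higher and 2 lower of 36 and BMP and TGF-beta genes 3 and 3 of 26, near the shares of all genes (1 and 1, and 2 and 2, without the variance bound).

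**Figure D4:**
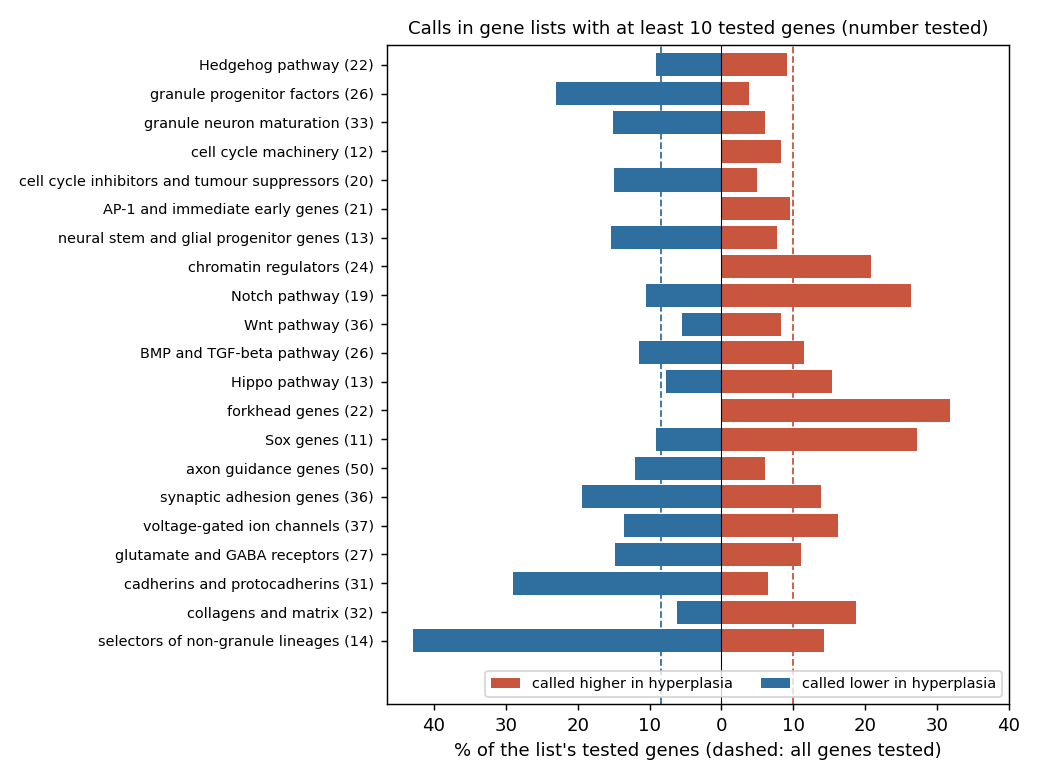
Share of each list's tested genes called higher (red, to the right) or lower (blue, to the left) in hyperplasia, in %, for lists with at least 10 tested genes (number in brackets), with dashed lines at the 9.91% and 8.43% of all tested genes. Forkhead genes reach 31.8% higher and 0 lower, and granule progenitor factors 3.85% higher and 23.1% lower.

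Markers of other cell types were counted in the same way, over all members of each list. Summed over the 12 astrocyte markers, regions ranged from 58 to 62 in GNP and from 70 to 81 in hyperplasia. The range went from 26 to 29 up to 35 to 37 over the 13 microglia and immune markers, from 73 to 77 up to 86 to 93 over the 14 Purkinje and interneuron markers, from 44 in each library up to 49 to 53 over the 15 fibroblast and mesenchyme markers, and from 56 to 58 up to 60 to 61 over the 13 endothelial and mural markers. In these 5 sums every hyperplasia library lay above every GNP library, and the 12 oligodendrocyte markers overlapped (49 to 53 and 50 to 63). Separate sums were common among the 30 lists and not particular to these markers. Granule progenitor factors went down, from 312 to 323 in GNP to 274 to 306 in hyperplasia. Granule neuron maturation genes went from 480 to 492 down to 451 to 474. Without the members called higher, a setting chosen after seeing the data, the groups overlapped over astrocyte (39 to 42 and 40 to 49), microglia (17 to 21 and 19 to 22) and Purkinje and interneuron markers (65 to 68 and 67 to 74). The fibroblast sums stayed apart (40 to 41 and 44 to 48), and no endothelial or mural marker was called higher. Single fibroblast members also fell, such as Osr1, from 4, 4 and 3 in GNP to 2, 2 and 2. The part of these markers in the results above was not tested, and more cells of a type and more accessible chromatin per cell cannot be told apart in these libraries. Defining members without a region in any library were Aldoc for astrocytes, Mag for oligodendrocytes, Csf1r and Itgam for microglia and Pcp2 for Purkinje cells. Among the called astrocyte members, the glial glutamate transporter gene Slc1a3 had 15, 13 and 15 regions and then 19, 19 and 22 (0.45 ± 0.11, limma adjusted p = 0.00196), and the growth factor gene Gdf10 had 5, 6 and 7 and then 11, 10 and 10 (0.70 ± 0.14, adjusted p = 0.000241). The immune genes Ptprc and Irf8 had 3, 2 and 3 and then 6, 4 and 6, and 6, 6 and 5 and then 9, 10 and 10 (adjusted p = 0.00138 and 0.000337). Slc1a3 and Ptprc had, without the variance bound, adjusted p-values of 0.0515 and 0.0830. The astrocyte markers Aqp4, a water channel gene, and Gfap, a filament gene, had 1, 1 and 1 and then 0, 0 and 1, and 3, 3 and 3 and then 3, 2 and 2. Of the 3 called Purkinje and interneuron markers Foxp2 was higher and the other two lower. Gad2 had 5, 3 and 4 and then 2, 2 and 3 (−0.58 ± 0.19, adjusted p = 0.0304), and Lhx5, a LIM homeobox gene, 6, 8 and 5 and then 5, 3 and 5 (−0.46 ± 0.17, adjusted p = 0.0461). Gad2 was not called without GNP replicate 3 or hyperplasia replicate 1 or 2 (0.107 to 0.123) and not tested without GNP replicate 1, and Lhx5 was not called without GNP replicate 1 or 2 or hyperplasia replicate 2 (0.0727 to 0.371). Their adjusted p-values without the variance bound were 0.166 and 0.278. Gad1, which encodes the other GABA-synthesising enzyme, had 6, 6 and 5 and then 4, 4 and 4 (adjusted p = 0.0525).

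Genes listed as selectors of non-granule lineages had 6 lower and 2 higher of 14 tested. These shares were 42.9% and 14.3%, against 8.43% and 9.91% of all genes. The list name is only a label, since members such as Otx2 also act in the cerebellum. Without the variance bound 3 were lower and 1 higher. Of the 6 lower genes, En2, Tbr1 and Nkx6-1 were not called then (limma adjusted p 0.202, 0.0972 and 0.237). The summed regions of the list overlapped (133 to 145 in GNP and 124 to 140 in hyperplasia). The higher genes were Foxa2 (1.64 ± 0.13 on the log2 scale) and Gata3, a zinc-finger factor gene, with 4, 3 and 3 and then 4, 6 and 5 (0.46 ± 0.17, limma adjusted p = 0.0475). The call of Gata3 ended without GNP replicate 2 or 3 or hyperplasia replicate 2 or 3 (0.0993 to 0.291), and its change was −0.17 with whole lists and −0.057 with the score limit. The lower genes included Tlx3, Otx2, a homeobox factor of the midbrain and caudal cerebellum, with 13, 12 and 12 and then 7, 9 and 8 (−0.57 ± 0.12, adjusted p = 0.000959), and Eomes, a T-box factor of unipolar brush cells, with 9, 8 and 10 and then 6, 6 and 5 (−0.58 ± 0.14, adjusted p = 0.00205).

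Along the chromosomes, 307 of 1835 windows of 1 Mb with at least 10 regions on average (16.7%) held more regions in hyperplasia and 160 (8.72%) fewer (limma, Benjamini-Hochberg adjusted p below 0.05). The rises fell where genes are sparse. Of the 650 windows with 0 to 5 coding genes 20.8% were higher and 7.69% lower, and of the 100 windows with over 30 coding genes 3% were higher and 6% lower. The strongest rise was on chromosome 6 from 15 to 16 Mb, the window with Foxp2, with 5, 7 and 7 regions in GNP and 17, 17 and 18 in hyperplasia (1.33 ± 0.14, limma adjusted p = 2.44e-05). It was followed by windows that start at 15 Mb of chromosome 5 (8, 6 and 6 to 13, 15 and 17), 9 Mb of chromosome 2 (7, 7 and 8 to 19, 14 and 15), 102 Mb of chromosome 5 (10, 10 and 11 to 19, 19 and 21) and 20 Mb of chromosome 5 (13, 14 and 14 to 26, 24 and 27). The strongest fall was in a window without a coding gene that starts at 46 Mb of chromosome 10, with 18, 17 and 17 and then 7, 7 and 9 (−1.09 ± 0.12, adjusted p = 2.47e-05). The next were windows that start at 12 Mb of chromosome 11 (14, 14 and 15 to 8, 6 and 9), 24 Mb of chromosome 9 (20, 20 and 20 to 14, 12 and 9), 70 Mb of chromosome 2 (34, 39 and 35 to 20, 22 and 22) and 11 Mb of chromosome 13, the Ryr2 window (16, 16 and 16 to 9, 9 and 10). All 10 stayed called in every fit without 1 library that tested them. The count of lower windows was 104 without GNP replicate 1 and 97 without GNP replicate 2. With whole lists 121 windows were higher and 20 lower, and with the score limit 5 and 658.

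No chromosome could be called, since the smallest exact p of 3 against 3 libraries is 0.1. The share of kept summits per chromosome differed without overlap on chromosomes 2, 7, 13, 14 and 16 (exact two-sided permutation p = 0.1, adjusted p = 0.42 over 21 chromosomes). Gained regions made up 5.80% of the regions of chromosome 13 and 2.77% of those of the X chromosome, where 3.55% were lost. Over all regions 4.84% were gained and 4.5% lost.

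Changed regions were looked up in libraries that the choice of regions did not use. In the 3 tumor libraries, treated in the same way, 57.8% ± 1.02 (SD, n = 3) of gained regions were occupied, against 30.003% ± 3.92 of lost, 95.6% ± 0.824 of core regions and 64.03% ± 1.16 of all regions. Each tumor library held more of the gained than of the lost regions, with 57.7%, 56.9% and 58.9% against 25.5%, 32.3% and 32.3%. In untreated VDR cells the order was the reverse, with 12.4% ± 1.78 of gained and 17.7% ± 2.37 of lost regions occupied, against 32.7% ± 3.55 of all regions. With the control siRNA siNC the shares in VDR cells were 21.6% ± 1.13 and 25.9% ± 1.36, against 48.3% ± 2.37 of all regions. The mean share of gained regions lay below that of all regions in these 3 groups, a difference that was not tested. All regions include the 43607 core regions, whereas gained regions are by definition absent from 3 libraries. The share of all regions is therefore no like baseline, and it does not show that gained regions were poorly kept. By distance, the share of gained regions occupied in tumor went from 51.4% ± 5.22 near gene ends to 60.1% ± 3.57 beyond 500 kb, and that of lost regions from 30.3% ± 1.35 to 17.99% ± 3.68.

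**Figure D5:**
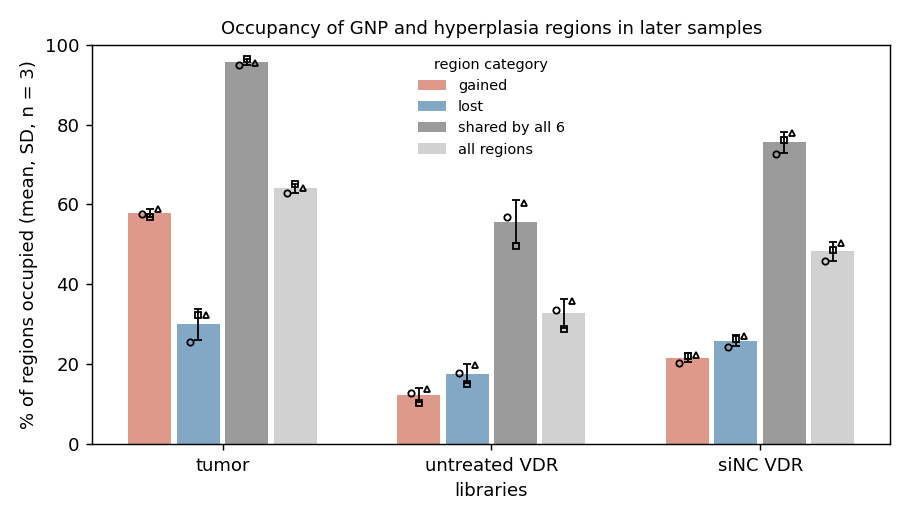
Percent of regions occupied (vertical axis) in tumor, untreated VDR and siNC-treated VDR libraries, for regions gained or lost in hyperplasia, shared by all 6 GNP and hyperplasia libraries, and all regions. Bars are means of 3 libraries, error bars SD and symbols single libraries: tumor libraries held 57.8% of gained, 30.003% of lost and 64.03% of all regions.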

How the data were processed

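Omni-ATAC summit lists of 3 GNP and 3 hyperplasia libraries were compared, with tumor and VDR lists used only to look up regions or in alternative fits. The authors deposited 1 list per library whose column 5 is a −log10 p or q value, which of them is not stated. Per the submitters' processing notes, Bowtie2, Picard and MACS2 were used with mm10, and versions, thresholds and read shifting are not given in the sources used here. The score depends on depth and served only to rank summits within a list. The 100000 highest summits per list were merged greedily by rank into 500 bp regions. Regions went to the smallest of 21887 RefSeq protein-coding gene bodies (GRCm38.p6) that held the centre, or else to the nearest within 100 kb. Both ends of a gene count as gene ends, since strand was not used there.

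Regions per gene (mean of at least 3) and per 1 Mb window (mean of at least 10) were tested as log2(regions + 1) with limma 3.58.1 (trend, R 4.3.3) over the 6 libraries and adjusted by Benjamini and Hochberg. The planned fit had no lower bound on the variance. Whole-number counts gave near-zero variances, and in 15 sets of 6771 genes simulated with 200 changed, 0% to 25.1% of its calls were false (median 19.9%). A bound equal to the variance when 1 of 3 libraries differs by 1 region was added after seeing the data. It gave 1.96% to 11.6% false calls (median 6.16%). With it at least 97% of genes changed 2-fold were recovered, but changed genes were drawn only from those with a mean of at least 6 regions. Recovery of genes with fewer regions was not simulated. The simulated spread was taken from these data, in some sets from the fit with the bound itself, and noise was independent between genes. Fold changes on the log2(regions + 1) scale understate the change of genes with few regions. Single values were compared with exact permutation tests (scipy 1.17.1).

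Members and gene lists were chosen with earlier results of these data known. The naming rule took the 15 largest called changes per direction without overlap, every called member of 30 gene lists, 23 genes of the Hedgehog pathway, granule lineage and NFI family, and the regions and windows with the best ranks or largest changes. A few genes it names are not reported here. Of the other 169 with a fit, those described were picked after their values and their stability were seen, and genes whose direction turned under an alternative were left out more often. The described genes are therefore more stable than the called genes at large, and stability is counted over all 169.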

Additional observations from a re-analysis of the deposited data

How the results depend on the processing

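At 50000 summits per list, 376 genes were higher and 430 lower, 175 windows were higher and 151 lower, and 2829 regions were gained and 3004 lost. With whole lists the counts were 318 and 149 genes, 121 and 20 windows, and 7101 lost regions. With a score of at least 10 they were 44 and 1637 genes, 5 and 658 windows, and 2671 gained and 9366 lost regions and the difference in the share near gene ends was 1.77. The fit of 12 libraries (with tumor and untreated VDR) gave 142 and 88 genes, gene bodies alone 373 and 325, and limma without the variance bound (chosen after seeing the data) 318 and 234. The replicate block gave 419 and 356 genes and 314 and 169 windows. Correlations of the deviations of same-numbered libraries were −0.00384, 0.00407 and −0.0108, so the numbers did not pair the libraries. Asking for no summit in any whole list of the other group left 932 gained and 501 lost regions.

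Leaving out 1 library gave 483 to 565 higher and 325 to 607 lower genes, 212 to 295 higher and 97 to 187 lower windows, 5519 to 6848 gained and 5252 to 6272 lost regions, and a difference near gene ends of −2.32 to −0.949. The numbers of genes lower were 349 without GNP replicate 1 and 325 without GNP replicate 2, and of windows lower 104 and 97. Starts closed were 63 with whole lists and 197 with the score limit, where 22 opened.

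Of the 169 genes named by the rule with a fit, the direction turned in 38. With the score limit these were Arid1b (−0.18), Cacna2d3 (−0.10), Cadm2 (−0.062), Cdkn1a (−0.12), Fosl2 (−0.11), Gata3 (−0.057), Grid1 (−0.12), Kcnip1 (−0.076), Kcnip4 (−0.032), Kmt2c (−0.21), Lama1 (−0.17), Lfng (−0.047), Nfia (−0.21), Nfix (−0.50), Ntng2 (−0.27), Pcdh9 (−0.38), Ptprf (−0.18), Rbfox1 (−0.081), Sema6a (−0.049), Sox1 (−0.14), Sox8 (−0.089), Wwtr1 (−0.12). With whole lists they were Cacna2d3 (−0.018), Cdh12 (0.076), Cdkn1a (−0.28), Cdkn1b (0.12), Foxd1 (−0.091), Foxn1 (−0.014), Gata3 (−0.17), Grid1 (−0.055), Lamb1 (−0.0025), Nrxn3 (0.038), Ntng2 (−0.13), Numb (−0.13), Trp63 (0.31), Xrcc4 (0.16). With 50000 summits they were Cdkn1b (0.16), Efnb2 (0.088), Fosl2 (−0.031), Gabrb1 (0.21), Kcnip1 (−0.080), Nrxn3 (0.21), Pcdh9 (−0.30), Tgfb3 (0.35), Wwc1 (0.41). In gene bodies alone they were Cdh6 (0.031), En2 (0.088), Sox4 (−0.11), and with 1000 bp regions Lfng (−0.068). The call ended for 110 of the 169 with whole lists, 115 in the fit of 12 libraries, 90 without the variance bound, 48 with the replicate block and 24 to 53 with 1 library left out. The causes were not tested. Depth is unknown, an unoccupied region may hold a weaker summit, and 3 libraries per group cannot reach an exact p below 0.1.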
